A study of Mus musculus with 6 samples.

Results

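Fgf21, the stress hormone fibroblast growth factor 21, was examined together with its co-receptor Klb (beta-Klotho) and the receptor tyrosine kinases Fgfr1 and Fgfr2 in mouse cortex with and without HtrA2. Every probe set that the platform annotation gives to one of these symbols alone was taken. This gave 9 probe sets for the 4 genes, 1 for Fgf21, 2 for Klb, 3 for Fgfr1 and 3 for Fgfr2, out of 45037 probe sets and 18193 named genes. HtrA2 is a protease that resides between the membranes of mitochondria. Total RNA came from cortex at postnatal day 29, and biotin-labelled RNA was hybridised to Affymetrix arrays, 3 of wild type mice and 3 of HtrA2 knockout littermates. The strain, the sex of the mice and how the knockout allele was made are not given in the sources used here. The submitters' text states that the cortical region showed no neuron loss. Nothing in the labels says that different arrays hold different animals, and each p-value refers to the spread among the arrays only.

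FGF21 is secreted mainly by the liver, and other tissues make it when mitochondria or protein synthesis are under stress. The kinases of the integrated stress response phosphorylate the initiation factor eIF2, which favours translation of ATF4, and ATF4 binds C/EBP-ATF response elements in the Fgf21 promoter. Cells respond to the hormone where beta-Klotho, which binds it, is present with an FGF receptor, chiefly the c form of FGFR1. The active receptor signals through FRS2, RAS and ERK, and ERK induces its own inhibitors of the Sprouty, SPRED and DUSP families.

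The stretch upstream of the Fgf21 transcription start is shown because it holds the letters of such an element. It lies at chr7:45615491-45615740 on the minus strand of GRCm38.p6 (RefSeq) and is the 250 bases before the start. Capitals mark 2 motifs searched on both strands, TGATGNAA, the core of the C/EBP-ATF element, which is read here on the opposite strand, and the E-box CACGTG. They do not overlap. The first begins 139 bases and the second 50 bases before the start.
Fgf21: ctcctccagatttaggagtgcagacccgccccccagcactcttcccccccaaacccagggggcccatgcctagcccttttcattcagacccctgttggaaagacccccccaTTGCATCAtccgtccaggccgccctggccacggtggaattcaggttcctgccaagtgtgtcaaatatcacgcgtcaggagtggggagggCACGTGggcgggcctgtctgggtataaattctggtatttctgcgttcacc

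TGATGNAA was found in 3.45% and CACGTG in 6.02% of all 32851 upstream windows of this length. The windows of Klb and Fgfr2 held neither motif, and Fgfr1 was not among the sequences. Of 15 transcription factors known to act on Fgf21, the window of 1, Atf3, held TGATGNAA. Windows were also searched for other targets of ATF4, chosen with their changes known: those of Chac1 and Asns held TGATGNAA, that of Shmt2 held neither motif, and Slc7a3 was not among the sequences. A 30-base view is given for the 4 genes whose window held TGATGNAA. They lie in the 250 bases before the start of Atf3 (chr1:191183334-191183583, minus strand), Chac1 (chr2:119350992-119351241, plus strand) and Asns (chr6:7693210-7693459, minus strand) in GRCm38.p6. Capitals again mark the motif, which lies on the opposite strand in all but Asns.
Fgf21: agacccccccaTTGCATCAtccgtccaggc
Atf3: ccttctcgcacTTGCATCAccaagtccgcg
Chac1: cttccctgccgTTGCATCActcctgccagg
Asns: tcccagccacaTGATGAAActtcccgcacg
The 4 genes rose in the knockout, Fgf21 by 1.15, Atf3 by 0.52 and Chac1 by 1.20 on the log2 scale, and Asns by 0.75 and 0.89 at its 2 probe sets. Genes without TGATGNAA in their windows rose too: Ddit3 by 1.86 at 1 of 2 probe sets, Atf5 by 1.02, Nr1d1 by 0.63 and Angptl6 by 0.52. A match of letters is a description and does not show that a factor bound there.

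Levels below are the deposited RMA values on the log2 scale, a change is knockout minus wild type on that scale, ± is its standard error unless called SD, and n = 3 arrays in each group. A probe set counted as called at an adjusted p under 0.05 in limma's moderated test, Benjamini-Hochberg adjusted over all 45037 probe sets. Levels of different probe sets are not comparable with each other, since each binds its target with its own strength. Over the whole table, 398 probe sets (0.884%) were called higher and 398 (0.884%) lower. Of the probe sets of the deleted gene, Htra2 1460495_s_at fell by 2.27 ± 0.17 and 1436269_s_at rose by 1.11 ± 0.08. Where their probes lie relative to the deletion is not given here. The labelled tissue was checked by Snap25, Camk2a and Slc17a7, neuron genes that were bright on every array (13.64 to 13.89, 13.13 to 13.24 and 10.87 to 11.06 at their brightest probe sets). Knockout replicate 2 stood farthest from its group, at a root mean square deviation of 0.178 log2 units, where the other arrays stood at 0.0915 to 0.133. The Y-linked probe sets were low in wild type replicate 1 and knockout replicate 3 and high in the other 4 arrays, so the sexes were mixed in both groups.

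Fgf21 rose in the knockout cortex. Its probe set 1422916_at read 5.45, 5.58 and 5.67 in wild type replicates 1 to 3 and 6.61, 6.39 and 7.16 in knockout replicates 1 to 3. All 3 knockout arrays lay above all 3 wild type arrays, and the knockout arrays were more spread, with SD 0.398 against 0.111. The mean went from 5.57 to 6.72, a rise of 1.15 ± 0.18 with a 95% confidence interval of 0.74 to 1.57, or 2.22-fold (limma adjusted p = 0.0273). It was the 1 called of the 9 probe sets, where 1.77% of all probe sets were called and 0.884% were called higher, and ranked 33rd by size among the 398 called higher. The call rested on all arrays but knockout replicates 2 and 3: the adjusted p was 0.1447, 0.1405 and 0.0894 without wild type replicates 1, 2 and 3 and 0.0611 without knockout replicate 1, with changes of 1.09 to 1.21. Without knockout replicates 2 and 3 the gene rose by 1.32 and 0.93 (adjusted p = 0.0094 and 0.0374).

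**Figure D1:**
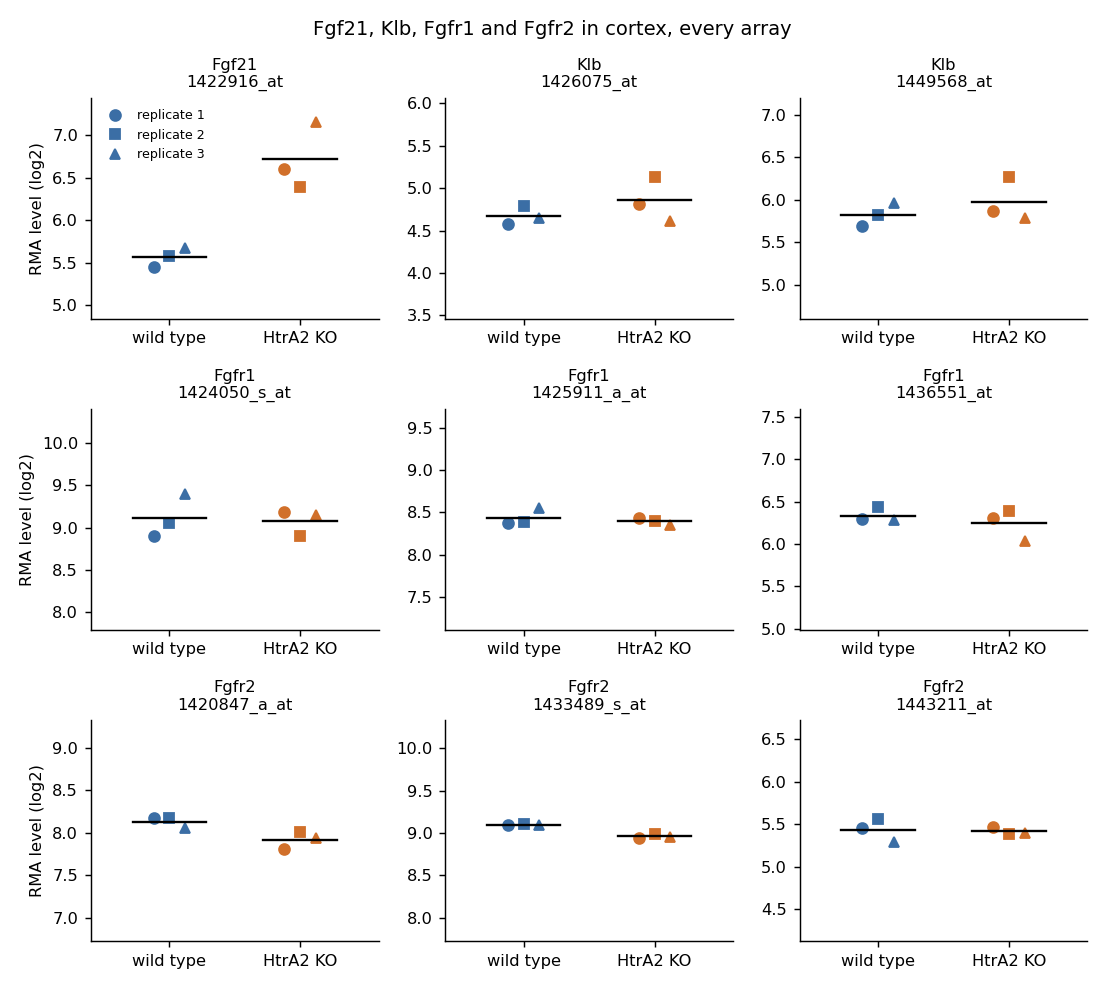
RMA level (log2) of each of the 9 probe sets on every array, wild type in blue and knockout in orange, with the marker shape giving the replicate number and a line the group mean (n = 3); every panel spans the same range of log2 units. Fgf21 goes from 5.57 to 6.72 with no overlap, while the groups overlap at both Klb and all 3 Fgfr1 probe sets and have means 0.21 and 0.13 lower in the knockout at 2 of the Fgfr2 probe sets.

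The level was highest in knockout replicate 3 and lowest of the knockouts in replicate 2. Markers of meningeal fibroblasts had the same order of knockout arrays. Over 9 of 9 measured genes their mean level was 8.70 to 8.97 in wild type. It was 9.22, 8.92 and 9.53 in knockout replicates 1 to 3. Of the 9 genes 0 were called, but 0 of 9 changes lay below 0, where 45.1% did over all named genes. The median change of these markers was 0.52, beside 0.02 over all named genes. In knockout replicate 2 the meningeal mean, 8.92, lay inside the wild type range, near its upper end of 8.97. Fgf21 read 6.39 there, and 5.67 in the highest wild type array. These values come from a single knockout array, which had the largest root mean square deviation, 0.178 log2 units. The part of the meningeal markers in the result was not tested. For liver, the main source of circulating FGF21, the mean marker level over 5 of 6 genes was 6.12 to 6.98 in wild type and 5.95 to 6.23 in the knockout, with 0 called, a median change of 0.09 and 2 of 5 changes below 0. The highest of these means, in wild type replicate 2, went with Ttr, a transcript that choroid plexus also makes and that read 12.86 there and 8.47 and 8.62 in the other wild type arrays. Albumin, its defining product, read 5.43 to 5.68 in wild type and 5.54 to 5.83 in the knockout and did not pass (change 0.09 ± 0.11, adjusted p = 0.747). Fitted beside the mean Y-linked level, Fgf21 was called (adjusted p = 0.0406). In bulk tissue, more cells that make a transcript and more transcript per cell cannot be told apart.

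Klb, the co-receptor that makes a cell responsive to FGF21, was not called at either probe set. Probe set 1426075_at read 4.58, 4.78 and 4.65 in wild type and 4.82, 5.13 and 4.62 in the knockout (change 0.19 ± 0.13, 95% confidence interval -0.12 to 0.49, adjusted p = 0.549). Probe set 1449568_at read 5.69, 5.82 and 5.96 against 5.87, 6.27 and 5.78 (change 0.15 ± 0.14, interval -0.16 to 0.46, adjusted p = 0.66). At both, knockout replicate 2 was the highest of all arrays and the groups overlapped. Both Klb probe sets were dim, at percentiles 24.1 and 42.5 of mean level, and RMA compresses dim probe sets. The intervals leave room for a reading up to 1.41-fold higher or 0.892 of wild type. They may therefore not bound the change of the transcript itself.

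Fgfr1, the main receptor partner of beta-Klotho, was not called at any of its 3 probe sets. Probe set 1424050_s_at read 8.89, 9.05 and 9.40 in wild type and 9.18, 8.90 and 9.15 in the knockout (change -0.04 ± 0.14, interval -0.36 to 0.28, adjusted p = 0.924). Probe set 1425911_a_at read 8.37, 8.39 and 8.56 against 8.44, 8.40 and 8.35 (change -0.04 ± 0.08, interval -0.23 to 0.14, adjusted p = 0.844). Probe set 1436551_at read 6.29, 6.43 and 6.28 against 6.30, 6.39 and 6.04 (change -0.09 ± 0.11, interval -0.33 to 0.15, adjusted p = 0.739). The groups overlapped at all 3, the sign of each change turned when some single array was left out, and no probe set of Fgfr1 stood apart from the others: the largest gap between their changes was 0.05. The annotation does not tell which splice form each probe set reads, so the b and c forms were not told apart.

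Fgfr2, which astrocytes and oligodendrocytes express, was lower in every knockout array at 2 of its 3 probe sets, without passing the test. Probe set 1420847_a_at read 8.17, 8.17 and 8.06 in wild type and 7.81, 8.01 and 7.94 in the knockout (change -0.21 ± 0.08, interval -0.40 to -0.02, adjusted p = 0.246, unadjusted 0.0337). Probe set 1433489_s_at read 9.09, 9.10 and 9.10 against 8.94, 8.99 and 8.95 (change -0.13 ± 0.07, interval -0.29 to 0.02, adjusted p = 0.362). Its groups were narrow, with SDs of 0.00567 and 0.0245, and did not overlap. Probe set 1443211_at read 5.45, 5.56 and 5.29 against 5.46, 5.39 and 5.40 and overlapped (change -0.02 ± 0.09, interval -0.22 to 0.19, adjusted p = 0.954). It was the dimmest of the 3, at percentile 35.4 of mean level. Counting Fgf21, 3 of the 9 probe sets had groups that did not overlap, where 23.2% of all probe sets did. Mean levels of glia markers were lower in the same arrays. Over 8 astrocyte genes the mean was 10.99 to 11.03 in wild type and 10.77 to 10.87 in the knockout. The astrocyte genes were mixed, with 6 of 8 changes below 0 (45.1% of all named genes). Of them 3 were called lower and 1 higher (1.67% and 1.64% of all named genes). Over 6 oligodendrocyte progenitor genes the mean was 9.71 to 9.75 against 9.31 to 9.38. Over 7 of 8 myelin genes it was 11.79 to 11.96 against 11.53 to 11.67, and over 7 microglia genes 8.71 to 8.94 against 8.39 to 8.51. The part of these markers in the Fgfr2 difference was not tested.

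**Figure D2:**
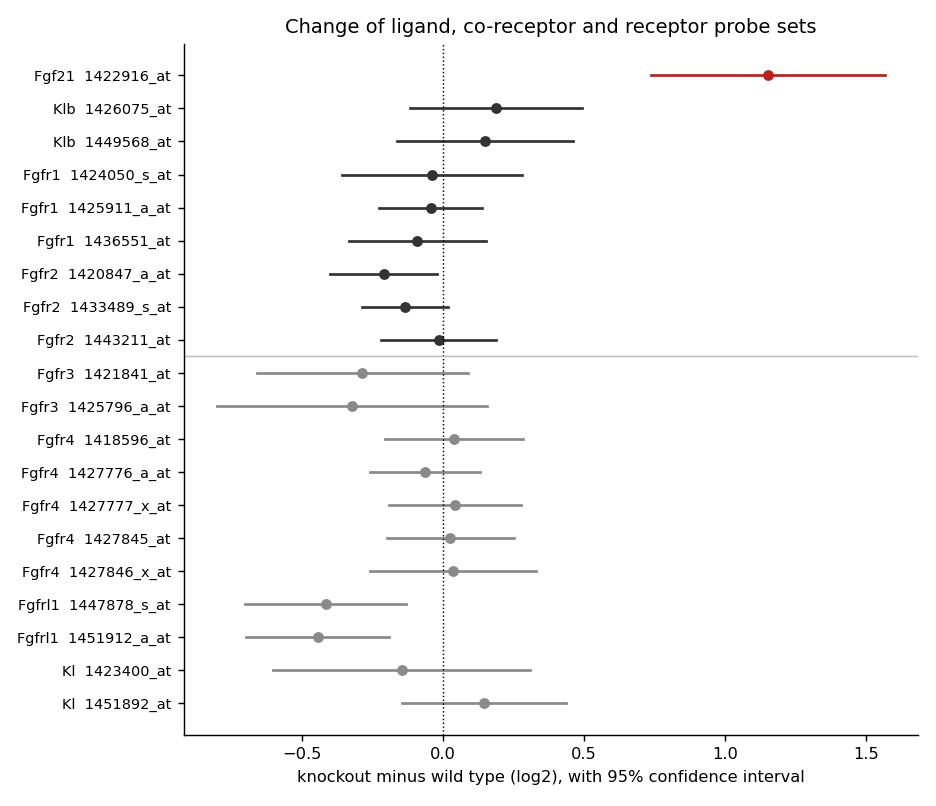
Change (knockout minus wild type, log2) with its 95% confidence interval for the 9 probe sets of the 4 genes (above the grey line) and 11 probe sets of Fgfr3, Fgfr4, Fgfrl1 and Kl (below it); red marks the called probe set. Only the interval of Fgf21, 0.74 to 1.57, lies wholly above 0; those of 1 Fgfr2 and 2 Fgfrl1 probe sets lie wholly below 0 before adjustment.

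Of the 8 receptor and co-receptor probe sets, limma called 0, and 1 had an unadjusted p under 0.05. The rise of Fgf21 was set against each of the 8 by taking the difference of levels on every array. The change of Fgf21 was larger by 0.96 to 1.36, the groups of these differences did not overlap at any of the 8, and the exact two-sided permutation p was 0.1 each time, the smallest that 20 splits of 3 against 3 arrays allow. The comparison was chosen with the values in view. All 8 differences share the same Fgf21 values, whose groups did not overlap by themselves. The 8 results are therefore not separate evidence.

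The other receptors and Klotho proteins were not called either, at 0 of 4 measured genes by limma, with 1 at an unadjusted p under 0.05, where 27.4% of all named genes had a probe set at that level. Fgfr3, a receptor of astrocytes whose c form can also pair with beta-Klotho, differed by -0.29 ± 0.16 and -0.32 ± 0.21 with overlapping groups. Fgfrl1, a receptor without a kinase domain, differed by -0.45 ± 0.11 and -0.42 ± 0.12 with no overlap (adjusted p = 0.0912 and 0.141). Fgfr4 differed by -0.07 to 0.04 over 5 probe sets. Kl, the co-receptor of FGF23, differed by 0.14 ± 0.13 and -0.15 ± 0.20; the mean level of choroid plexus and ependyma markers, Kl among them, was 6.13, 7.47 and 6.29 in wild type and 5.89 to 6.11 in the knockout, and their part in the Kl values was not tested.

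Among the 21 other Fgf ligands, limma called 0, and 3 had an unadjusted p under 0.05 (27.4% of all named genes). Their median change was -0.04, beside 0.02 over all named genes. Fgf1, a growth factor with no signal peptide, differed by -0.39 ± 0.11 (adjusted p = 0.115) at 1 probe set and by -0.22 and -0.03 at the other 2, and Fgf2, a mitogen for glia and neural progenitors, by -0.22 ± 0.07 (adjusted p = 0.183). The endocrine relatives of Fgf21 were not called: Fgf15, the bile acid signal of the gut, by 0.05 ± 0.07 and Fgf23, the phosphate hormone of bone, by -0.02 ± 0.08.

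Transcription factors known to act on Fgf21 rose at 4 of 15 measured genes and fell at 0, where 1.64% of named genes had a probe set called higher and 1.67% a probe set called lower (3.3% either). Their median change was 0.26. This list, like the others here, was chosen with earlier results of these data known, so the count is a description. Ddit3, which encodes the ATF4 partner CHOP, read 8.82 to 8.85 in wild type and 10.64 to 10.72 in the knockout at 1417516_at and rose by 1.86 ± 0.07 (adjusted p = 7.63e-05), while its other probe set, 1443897_at, differed by -0.01. Atf5, a relative of ATF4 tied to mitochondrial stress, read 7.45, 7.66 and 7.68 in wild type and 8.78, 8.32 and 8.74 in the knockout and rose by 1.02 ± 0.13 (adjusted p = 0.0159). Atf3, induced by stress, read 5.04 to 5.10 in wild type and 5.45 to 5.73 in the knockout and rose by 0.52 ± 0.09 (adjusted p = 0.0317). Nr1d1, the clock repressor REV-ERBα, read 8.43 to 8.53 in wild type and 9.03 to 9.17 in the knockout and rose by 0.63 ± 0.07 (adjusted p = 0.0125).

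Atf4 itself, which is controlled mainly in translation, was not called. Its probe set 1448135_at read 11.13 to 11.15 in wild type and 11.53, 11.57 and 11.25 in knockout replicates 1 to 3 (change 0.32 ± 0.10, adjusted p = 0.147), and the other 2 differed by 0.36 and 0.10. Cebpb, which pairs with ATF4, differed by 0.53 ± 0.10 and 0.48 ± 0.14 (adjusted p = 0.051 and 0.132). Ppara, which drives Fgf21 in fasted liver, differed by -0.31 to -0.06 over 3 probe sets. The count of 4 was 1, Ddit3, when any 1 wild type replicate or knockout replicate 3 was left out, and 7 without knockout replicate 2.

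**Figure D3:**
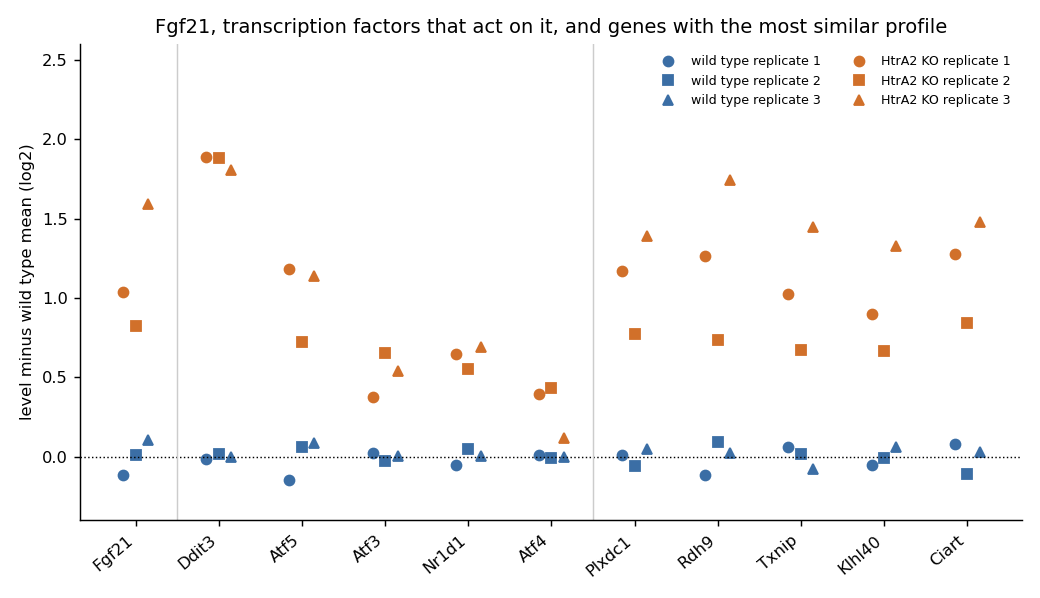
Level minus the wild type mean (log2) on each array for Fgf21, for 5 transcription factors that act on it and for the 5 genes whose array profile was most like that of Fgf21; blue is wild type, orange knockout, and shapes give the replicate number. Fgf21 and the 5 most similar genes are highest in knockout replicate 3 and lowest of the knockouts in replicate 2, while Ddit3 stands at 1.81 to 1.89 in all 3 knockout arrays.

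The factors did not all order the 3 knockout arrays alike. Fgf21 stood 1.04, 0.82 and 1.59 above the wild type mean in knockout replicates 1, 2 and 3. Ddit3 stood 1.89, 1.88 and 1.81 above it, Atf5 1.18, 0.73 and 1.14, and Atf3 0.38, 0.65 and 0.54. Nr1d1, at 0.65, 0.55 and 0.69, had the same order of knockout arrays as Fgf21, as did both probe sets of Cebpb. Few orders of 3 arrays are possible, and Pdk4, whose groups overlapped (change 0.13 ± 0.17), had the same order. Likeness to Fgf21 was measured over all named genes as the root mean square difference of the 6 array values, each centred on the wild type mean. The nearest were Plxdc1 (0.12), a plexin domain protein of vessels, Rdh9 (0.124), a retinol dehydrogenase, Txnip (0.135), an inhibitor of thioredoxin that responds to glucose, Klhl40 (0.142), a muscle protein, and Ciart (0.145), a clock repressor. Each was called higher, with rises of 1.11, 1.25, 1.05, 0.96 and 1.20 (limma adjusted p from 0.0157 to 0.0375), Plxdc1 and Txnip at 1 of 2 probe sets. Among 6 arrays in 2 groups such likeness is a description. The rises, calls and order of knockout arrays of these genes follow largely from picking them for likeness to Fgf21.

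Among 7 other measured secreted factors of mitochondrial or integrated stress, 1 rose and 0 fell, where 1.64% of all named genes were called higher. Angptl6, an angiopoietin-like protein of liver, read 7.75 to 7.88 in wild type and 8.21 to 8.47 in the knockout and rose by 0.52 ± 0.09 (adjusted p = 0.0351), a call held in 1 of 6 omissions of an array, that of knockout replicate 2. Adm2, a peptide hormone and ATF4 target, differed by 0.26 ± 0.14, Angptl4, an inhibitor of lipoprotein lipase, by 0.34 ± 0.17 and -0.06, and Metrn, a neurotrophic factor of glia, by -0.34 ± 0.08 and -0.38 ± 0.09. Metrnl, its relative, differed by -0.27 ± 0.09 at the probe set with the smallest p. Gdf15, the other mitochondrial stress hormone, was not analysed here.

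Downstream of the receptors, transcripts of the relay from receptor to ERK were not called. Of 18 listed genes 12 were analysed, limma called 0 and 4 had an unadjusted p under 0.05 (27.4% of all named genes). The others were not analysed here. Braf, a kinase that activates MEK, differed by 0.30 ± 0.09 at 1 probe set (adjusted p = 0.124) and by -0.26 at another of its 9. Ptpn11, the phosphatase SHP2, differed by 0.23 ± 0.07 (adjusted p = 0.147) and by 0.13 and -0.10 at its other 2 probe sets, and the median change of the list was -0.04.

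Targets and feedback inhibitors of FGF and ERK signalling fell at 3 of 16 measured genes and rose at 0, with 14 of 16 changes below 0 and a median of -0.24 at 1 probe set per gene. Over all named genes 1.67% were called lower and 45.1% of changes lay below 0. Dusp6, the ERK phosphatase, read 10.24, 10.20 and 10.17 in wild type and 9.44, 9.06 and 8.66 in the knockout and fell by 1.15 ± 0.17 (adjusted p = 0.0232). Dusp5, a nuclear ERK phosphatase, read 7.95 to 8.06 in wild type and 7.52 to 7.66 in the knockout and fell by 0.40 ± 0.07 (adjusted p = 0.0457). Spred1, an inhibitor of RAS, read 10.50 to 10.62 in wild type and 9.83 to 10.14 in the knockout and fell by 0.52 ± 0.10 at 1 of 8 probe sets (adjusted p = 0.0482). Spred2 differed by -0.49 ± 0.10 (adjusted p = 0.0597) at 1 of 5 probe sets, Egr1, an activity-dependent target of ERK, by -1.01 ± 0.21 (adjusted p = 0.0644) and Etv5, a target of FGF receptors, by -0.36 to -0.52 over 3 probe sets. Sprouty genes were not called: Spry1 differed by 0.00 ± 0.08, Spry2 by -0.22 and 0.12, Spry3 by -0.22 and Spry4 by -0.57 to 0.06 over 4 probe sets.

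Of these 3, Dusp6 alone was called after median centring. The count was 0 when any 1 wild type replicate was left out, 1 without knockout replicates 1 or 3 and 6 without knockout replicate 2. Neuron markers were lower in the same arrays, with a mean level over 10 genes of 12.33 to 12.36 in wild type and 12.11 to 12.20 in the knockout, and their part in these falls was not tested.

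Genes known to respond to the hormone in other tissues were called at 1 of 11, where 3.3% of all named genes were called. The list does not hold the direction of each response, so the count does not show a response to the hormone. Dio2, the deiodinase that activates thyroid hormone, read 10.15 to 10.25 in wild type and 8.84 to 9.10 in the knockout at 1418937_at and fell by 1.27 ± 0.09 (adjusted p = 0.00173). A second probe set, 1426081_a_at, fell by 1.08 ± 0.12, and the third differed by -0.61. Dio2 is made by astrocytes, whose mean marker level was lower in the same arrays, with mixed single genes as given for Fgfr2. The part of these markers in the fall of Dio2 was not tested. Slc2a1, the glucose transporter of the blood-brain barrier, differed by 0.24 ± 0.09 (adjusted p = 0.243), Crh, the corticotropin-releasing hormone, by -0.44 ± 0.17 (adjusted p = 0.248) and Cidea, a lipid droplet protein, by 0.16 ± 0.08. Ppargc1a, the coactivator PGC-1α, differed by at most 0.20 over 5 probe sets.

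**Figure D4:**
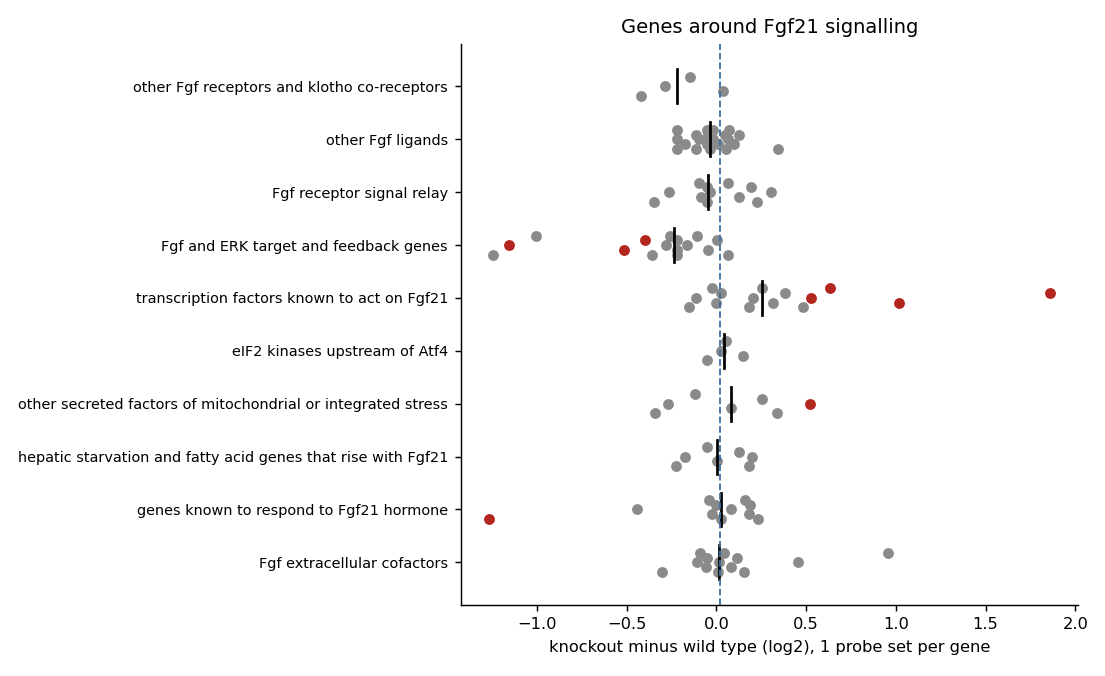
Change (knockout minus wild type, log2) of each measured gene in 10 lists, at its brightest probe set; red points were called, black bars are list medians and the dashed line is the median over all named genes, 0.02. Red points lie to the right in the list of transcription factors, whose median is 0.26, and to the left in the list of FGF and ERK targets, whose median is -0.24.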

How the data were processed

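The labels give 6 arrays of mouse cortex, 3 wild type and 3 HtrA2 knockout, at postnatal day 29. The authors deposited log2 values of 45101 probe sets, made with RMA per the submitters' processing notes (version not given there). RMA corrects background, quantile normalizes and summarizes probe sets; the log base was taken as 2 from the range of values. It hides shifts shared by most genes and compresses dim probe sets, and the number of arrays limits the precision.

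From these values 64 control probe sets were left out and 45037 tested, unfiltered, with limma 3.58.1 in R 4.3.3 (lmFit, eBayes, group as the only term). The platform annotation gave 34945 probe sets 1 symbol, 932 several and 9160 none; 34741 symbols were matched to RefSeq (GRCm38.p6). Members and lists were chosen with earlier results of these data known. Named were Htra2, all members, up to 4 genes per list by smallest p (2 where none was called) and the 5 nearest profiles to each called member; others were named after their values were seen. List medians use each gene's brightest probe set. Tested on simulated data for 45037 probe sets, the same code found 91 of 100 shifts of 1 log2 unit, all 100 shifts of 2, and 11 unchanged probe sets. The simulated noise was normal, independent and equally spread on every array. The real arrays were not equally spread, so these shares are a check of the code and not the power in these data. Alternatives covered filter, moderation, scaling, weights, block, covariate, threshold, 1 probe set per gene and single arrays.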

Additional observations from a re-analysis of the deposited data

How the results depend on the processing

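Fgf21 was tested in 16 alternatives, changed in the same direction in all of them and was called in 11. It was not called at an adjusted p under 0.01 (change 1.15, adjusted p = 0.0273), and leaving out 1 array gave changes of 0.93 to 1.32 with adjusted p from 0.0094 to 0.1447. The filter on dim probe sets removed it, since its mean level lay under the median of all, and left 0 called probe sets of the 4 genes, as did the stricter threshold; the count was 0 to 1 over the single-array omissions. The 8 receptor and co-receptor probe sets were called in 0 of 127 values under alternatives, and 9 values changed sign. Klb 1449568_at was -0.001 without both arrays numbered 2, an omission chosen after seeing the data. Fgfr1 1424050_s_at was 0.063 with array weights, 0.016 without both arrays numbered 2 and -0.15 to 0.102 over single-array omissions. Over the same omissions Fgfr1 1425911_a_at was -0.077 to 0.014, Fgfr1 1436551_at -0.166 to 0.012 and Fgfr2 1443211_at -0.09 to 0.048, the last also 0.063 without both arrays numbered 2.

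The count of called probe sets, 796, was 1757 with the filter, 1770 with an intensity trend and robust moderation, 4205 with array weights, 441 with the Y-linked covariate, 2035 and 79 at adjusted p under 0.1 and 0.01, 314 without both arrays numbered 2 and 65 to 3037 over single-array omissions. Called genes over the pathway lists were 16 with trend and robust moderation, 23 with array weights, 17 and 2 at the other thresholds, 4 without both arrays numbered 2 and 2 to 23 over single-array omissions. With the replicate block these counts were 154 and 3, and Fgf21 was called (adjusted p = 0.0418). The labels do not say that arrays sharing a number are paired. Deviations of arrays sharing a number correlated at -0.196, -0.041 and -0.169, and those of arrays with different numbers at -0.056 to 0.221. With 3 arrays in each group such correlations cannot decide whether littermates were paired. The causes of the differences between settings were not tested.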

Other observations

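The kinases that phosphorylate eIF2 and so lead to ATF4 showed no called change in transcript level: limma called 0 of 4, with 1 at an unadjusted p under 0.05 (27.4% of all named genes). Eif2ak3, the endoplasmic reticulum kinase PERK, differed by -0.24 ± 0.09 (adjusted p = 0.244) at the probe set with the smallest p and by 0.15 and 0.06 at its other 2, of which the first is its brightest. Eif2ak1, the kinase HRI that senses heme and mitochondrial stress, differed by 0.19 ± 0.09 (adjusted p = 0.329) at its dimmest probe set and by -0.06 to 0.07 at the other 4. Genes that rise with Fgf21 in fasted liver were not called at any of 7 measured genes by limma, with 2 at an unadjusted p under 0.05 (27.4% of all named genes), and their median change was 0.00. Bdh1, a ketone body enzyme, differed by -0.44 ± 0.11 (adjusted p = 0.0914) and by 0.20 at its other probe set, and Acadm, of fatty acid oxidation, by -0.23 ± 0.09 (adjusted p = 0.255).

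Extracellular cofactors of FGFs were called at 0 of 13 genes by limma, with 4 at an unadjusted p under 0.05 (27.4% of all named genes). Gpc4, a heparan sulfate proteoglycan of astrocytes, differed by 0.46 ± 0.09 (adjusted p = 0.0533) at 1 of 2 probe sets and by -0.02 at the other, and Ncam1, an adhesion molecule that binds FGF receptors, by -0.46 ± 0.10 at 1 of 7 probe sets (adjusted p = 0.0731). Fgfbp1, which releases FGFs from the matrix, had the largest difference of the list, 0.96 ± 0.37, without passing (adjusted p = 0.246). It read 6.02 to 6.18 in wild type and 6.93, 6.23 and 8.01 in knockout replicates 1 to 3, the same order of knockout arrays as Fgf21 and the meningeal markers. Few orders of 3 arrays are possible.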
